A study of Gasterosteus aculeatus with 12 samples.

Results

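JAG1, ZEB1 and PLEKHA7 were described across the kidney transcriptomes of threespine stickleback (*Gasterosteus aculeatus*). The 3 genes were chosen by identifier, as the rows of ENSGACG00000004493 (JAG1, 1 of 2), ENSGACG00000001002 (ZEB1, 1 of 2) and ENSGACG00000015632 (PLEKHA7, 1 of 2), out of 20860 genes in the deposited expression table. All 3 had a mean of at least 1 FPKM (fragment counts divided by gene length and by the size of the library) over the 12 libraries and were among the 15503 genes tested. The study asked which kidney genes respond to salt in a fish that lives in both fresh water and the sea. SW33K were saltwater fish from the coast, kept for 30 days at a salinity of 33 g/L. FW00K, FW11K and FW33K were freshwater fish from a lake, kept for 30 days at 0, 11 and 33 g/L. Every group held 3 libraries of wild-caught adult females from one site, each described as a separate fish. Reads of SW fish were aligned with one more mismatch allowed than reads of FW fish, so population, site and this setting cannot be told apart in any comparison of SW33K with an FW group.

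JAG1 is a membrane ligand of the Notch receptors, which are cleaved on contact with a ligand-bearing cell and then release a fragment that acts in the nucleus; Notch signals help to set cell fates along the nephron. ZEB1 is a zinc-finger repressor of epithelial genes, E-cadherin among them, and is best known from epithelial-mesenchymal transition (EMT). PLEKHA7 is a junction protein that ties the cadherin complex of the zonula adherens to microtubules. The study lists both JAG1 and PLEKHA7 among genes whose human counterparts genome-wide association has linked to hypertension or blood pressure. JAG1 was in the study's list for FW33K against FW00K and PLEKHA7 in that for FW33K against FW11K, both made from these libraries, so their calls here are not independent evidence. ZEB1 was drawn by the study in a pathway scheme. The suffix "1 of 2" marks a gene with a second copy in the fish genome, and reads shared by near-identical copies could have been split between them. The second copies were not analysed here.

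The libraries differed in more than these genes. The median FPKM of the tested genes was between 5.43 and 11.0 in SW33K, 14.4 and 16.7 in FW00K, 10.3 and 11.8 in FW11K, and 4.39 and 6.75 in FW33K. The 20 most abundant genes took 15.6% to 33.1% of the FPKM sum in SW33K, 10.8% to 11.9% in FW00K, 18.0% to 19.8% in FW11K and 28.1% to 41.8% in FW33K. The levels and changes of JAG1, ZEB1 and PLEKHA7 are therefore also given after median-ratio scaling, in which a library is divided by the median ratio of its genes to their geometric mean over all libraries. Replicates 2 and 3 of every group lay closer to each other (Pearson's r across genes 0.990 to 0.992) than to replicate 1 (0.846 to 0.945), so the spread within a group may be that of fewer than 3 independent samples. SW33K replicate 1 and FW11K replicate 1 stood farthest from their groups by the median log2 difference (0.56 to 0.82). The read numbers listed in the supplement put the first replicates of FW11K and FW33K well below the other libraries in depth. Over the tested genes as a whole, the median change on the log2 scale was -0.34 for FW11K over FW00K, -1.20 for FW33K over FW00K, -0.82 for FW33K over FW11K, 0.47 for SW33K over FW33K and -0.69 for SW33K over FW00K, and after scaling it lay within 0.05 of zero.

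**Figure D1:**
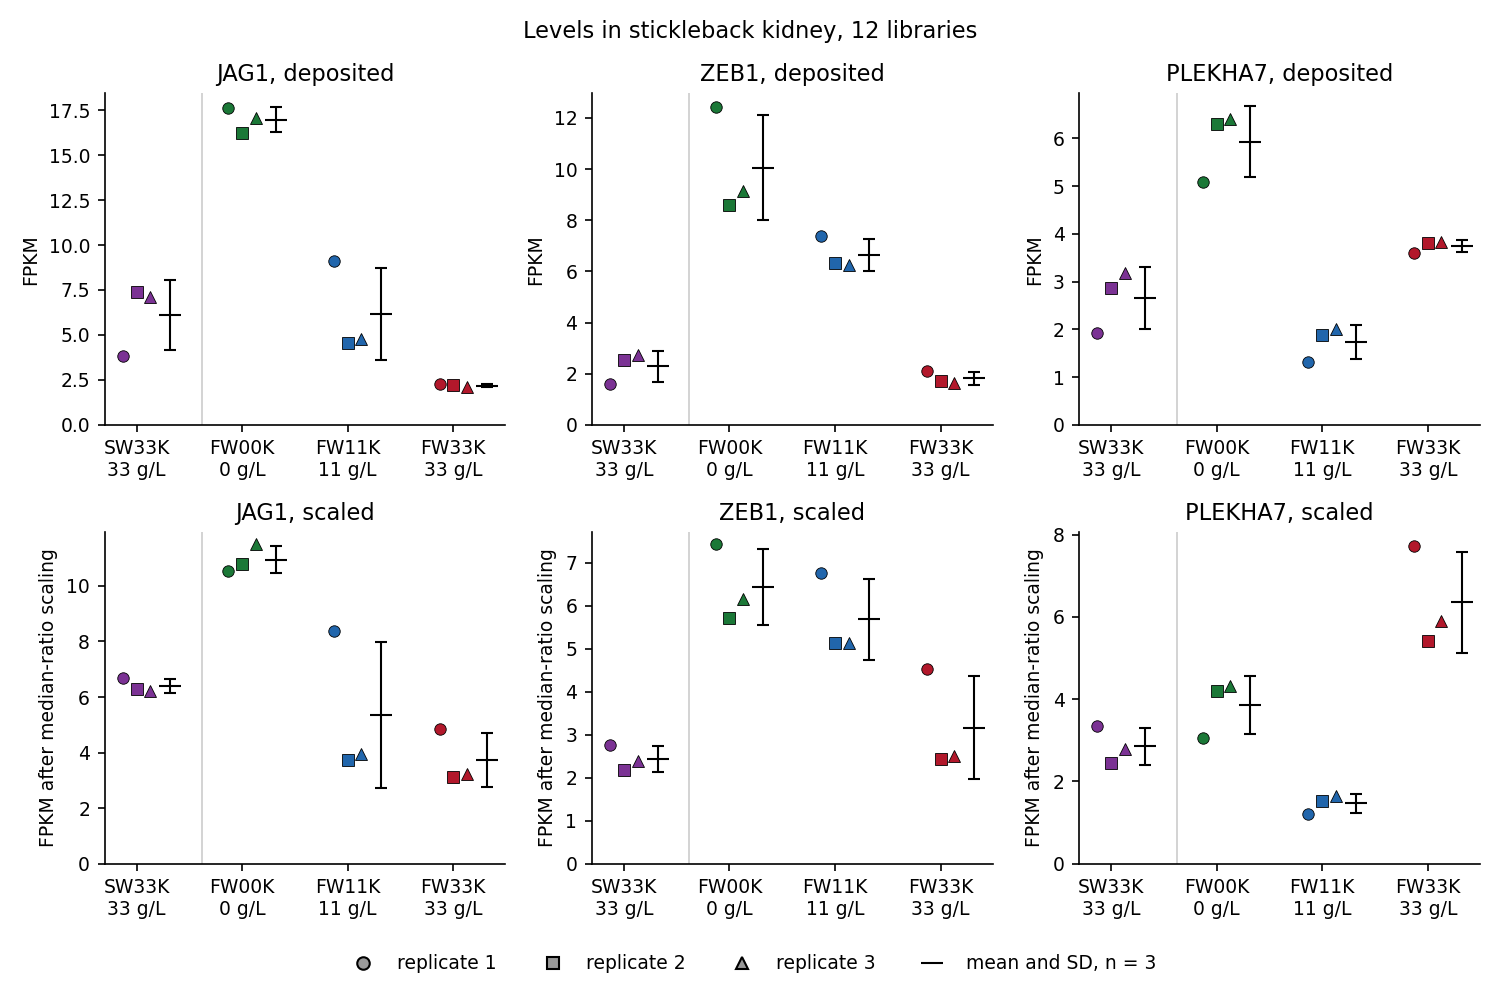
FPKM of JAG1, ZEB1 and PLEKHA7 in each library, as deposited (top) and after median-ratio scaling (bottom), by group and salinity; points are libraries, bars the mean and SD (n = 3). JAG1 and ZEB1 were highest in FW00K on both scales, whereas PLEKHA7 was highest in FW00K as deposited (5.08 to 6.41 FPKM) and in FW33K after scaling (5.42 to 7.73), with FW11K lowest on both.

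JAG1, the Notch ligand, fell in FW33K against FW00K on both scales, and there had the largest deposited fall of the 3 genes. It stood at 3.85, 7.39 and 7.08 FPKM in SW33K. In FW fish it stood at 17.6, 16.2 and 17.0 FPKM in FW00K, 9.13, 4.58 and 4.80 FPKM in FW11K, and 2.26, 2.20 and 2.10 FPKM in FW33K. The 3 FW groups did not overlap one another. The SW33K libraries lay above all FW33K libraries, below all FW00K libraries and within the range of FW11K or just under it. The means were 6.11 ± 1.96 FPKM in SW33K, 17.0 ± 0.684 in FW00K, 6.17 ± 2.57 in FW11K and 2.18 ± 0.0798 in FW33K (SD, n = 3 each). FW33K thus held 12.9% of the FW00K level, a 7.76-fold lower mean.

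The fall of JAG1 in FW33K against FW00K was -2.50 on the log2(FPKM + 1) scale (SE 0.29, 95% interval -3.12 to -1.87, limma adjusted p = 6.42e-05). In that comparison 51.3% of the tested genes passed the same threshold of 0.01, 7691 lower and 265 higher, and 83.5% had groups that did not overlap. Relative to the median of all genes the change of JAG1 was -1.30, and 5% of genes had a lower one. After scaling, where 18.8% of genes passed, 1194 lower and 1728 higher, the fall of JAG1 was -1.35 (SE 0.25, adjusted p = 0.00203), and the scaled levels were 4.85, 3.13 and 3.24 in FW33K against 10.5, 10.8 and 11.5 in FW00K. The deposited call held without any 1 of the 12 libraries (adjusted p at most 0.000599).

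JAG1 was also lower at 11 g/L, but less firmly. FW11K over FW00K was -1.38 (SE 0.29, adjusted p = 0.00907, with 4.46% of genes called and 44.7% not overlapping). After scaling it was -0.99 (adjusted p = 0.0178, with 8.04% of genes called, 624 higher and 623 lower, against 44 higher and 647 lower as deposited). The call was kept without FW11K replicate 1 or SW33K replicate 1 and lost without any other library (adjusted p 0.0116 to 0.0539). From 11 to 33 g/L the difference, FW33K over FW11K, was -1.12 (SE 0.29, adjusted p = 0.00848, with 25.1% of genes called, 278 higher and 3620 lower, and 66.6% not overlapping). It was close to the median of all genes (-0.82), was -0.37 after scaling (adjusted p = 0.281, with 14.5% called, 1362 higher and 891 lower), and the scaled groups overlapped through FW33K replicate 1. With the replicate number as a block, the adjusted p was 0.0106, and without any 1 library other than SW33K replicate 1 it was 0.0106 to 0.029, so this step did not hold as a call.

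At the same salinity, JAG1 was 2.80-fold higher in SW33K than in FW33K, but the difference did not pass. It was 1.12 on the log2 scale (SE 0.29, 95% interval 0.50 to 1.74, adjusted p = 0.0329). In this comparison 1.43% of genes were called, 161 higher and 60 lower, and 31.3% had groups that did not overlap. The scaled levels were 6.68, 6.30 and 6.20 in SW33K against 4.85, 3.13 and 3.24 in FW33K, again without overlap, with a difference of 0.66 (adjusted p = 0.106, with 4.32% of genes called, 236 higher and 434 lower). The share of all genes without overlap was not computed on the scaled values. Without SW33K replicate 1 the deposited difference was 1.37 and passed (adjusted p = 0.00236). Against FW00K, JAG1 was lower in SW33K by -1.38 (SE 0.29, adjusted p = 0.00294, with 21.8% of genes called, 258 higher and 3123 lower, and 61.7% not overlapping). After scaling this was -0.69 (adjusted p = 0.0492, with 19.7% called, 1569 higher and 1484 lower), and it also missed the threshold without FW00K replicate 1, 2 or 3 (adjusted p 0.0115, 0.0119 and 0.013).

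ZEB1, the repressor, was lower in SW33K and FW33K than in FW00K, and the 2 groups at 33 g/L overlapped. It stood at 1.60, 2.55 and 2.73 FPKM in SW33K. In FW fish it stood at 12.4, 8.61 and 9.15 FPKM in FW00K, 7.38, 6.32 and 6.24 FPKM in FW11K, and 2.11, 1.71 and 1.63 FPKM in FW33K. Every SW33K and FW33K library lay below every FW00K and FW11K library, and the SW33K and FW33K libraries overlapped. Over all tested genes, 83.5% did not overlap between FW33K and FW00K, 66.6% between FW33K and FW11K and 61.7% between SW33K and FW00K. The share for SW33K against FW11K was not computed. The means were 2.29 ± 0.61 FPKM in SW33K, 10.1 ± 2.06 in FW00K, 6.65 ± 0.637 in FW11K and 1.82 ± 0.26 in FW33K (SD, n = 3 each).

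The fall of ZEB1 in FW33K was -1.96 against FW00K (SE 0.24, adjusted p = 7.99e-05) and -1.44 against FW11K (SE 0.24, adjusted p = 0.000979) in limma on the deposited values. Relative to the median of all genes these falls were -0.76 and -0.62, and 14.4% and 19.7% of genes had a lower change. Of all tested genes, 51.3% passed in FW33K against FW00K and 25.1% in FW33K against FW11K, mostly as lower. After scaling the falls of ZEB1 were -0.87 (adjusted p = 0.00856) and -0.71 (adjusted p = 0.0249), where 18.8% and 14.5% of all genes passed. So after scaling the fall against FW00K still passed and that against FW11K did not. The scaled groups stayed apart in both, but the share of genes without overlap was not computed after scaling. Between FW11K and FW00K the difference was -0.52 (SE 0.24, 95% interval -1.04 to -0.001, adjusted p = 0.159) and -0.16 after scaling (adjusted p = 0.614). The deposited groups did not overlap there, as in 44.7% of all tested genes. The scaled groups of ZEB1 did overlap, with 6.77, 5.14 and 5.14 in FW11K against 7.44, 5.73 and 6.17 in FW00K.

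In SW33K, ZEB1 was 22.8% of its FW00K level, a change of -1.75 (SE 0.24, adjusted p = 0.000261, with 21.8% of genes called), and -1.11 after scaling (adjusted p = 0.00235, with 19.7% called). The deposited call and both deposited falls in FW33K held without any 1 library (adjusted p at most 0.00666). With replicates 2 and 3 averaged none of the 3 passed (adjusted p = 0.0211 for SW33K against FW00K, 0.0113 for FW33K against FW00K and 0.0824 for FW33K against FW11K), and under quantile normalization both falls in FW33K missed the threshold (adjusted p = 0.0293 and 0.0441). SW33K and FW33K differed by 0.21 (SE 0.24, 95% interval -0.31 to 0.73, adjusted p = 0.555) as deposited and by -0.24 (95% interval -0.70 to 0.22, adjusted p = 0.499) after scaling. The sign thus turned with the scaling, and both intervals included zero.

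PLEKHA7, the junction protein, did not follow salinity in order: its level was lowest in FW11K, and FW33K stood above FW11K by a difference that passed after scaling and not as deposited. It stood at 1.92, 2.86 and 3.19 FPKM in SW33K. In FW fish it stood at 5.08, 6.30 and 6.41 FPKM in FW00K, 1.32, 1.88 and 2.0 FPKM in FW11K, and 3.60, 3.80 and 3.83 FPKM in FW33K. The 3 FW groups were separate, and SW33K lay below FW33K and overlapped FW11K. Of all tested genes, 44.7% did not overlap between FW11K and FW00K, 83.5% between FW33K and FW00K and 66.6% between FW33K and FW11K. Between SW33K and FW33K the share was 31.3%. The means were 2.66 ± 0.656 FPKM in SW33K, 5.93 ± 0.74 in FW00K, 1.73 ± 0.361 in FW11K and 3.74 ± 0.128 in FW33K (SD, n = 3 each).

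The low level of PLEKHA7 in FW11K was 29.2% of that in FW00K, a change of -1.35 (SE 0.24, adjusted p = 0.00447) and of -0.97 after scaling (adjusted p = 0.00526). Of all tested genes, 4.46% passed in this comparison as deposited and 8.04% after scaling. The deposited call was lost without FW00K replicate 2 or 3, FW11K replicate 2 or 3, or FW33K replicate 3 (adjusted p 0.0105 to 0.0292), and under quantile normalization (adjusted p = 0.0277). FW33K over FW11K was 0.80 (SE 0.24, adjusted p = 0.0152), which missed the threshold, while 95.9% of the tested genes had a lower change in that comparison. With the replicate number as a block the adjusted p was 0.00897, and without SW33K replicate 1 it was 0.00292. After scaling, PLEKHA7 was 4.34-fold higher in FW33K than in FW11K (7.73, 5.42 and 5.91 against 1.21, 1.53 and 1.65), a change of 1.57 (SE 0.18, 95% interval 1.17 to 1.97, adjusted p = 0.000337). There 14.5% of all tested genes passed after scaling, 1362 higher and 891 lower.

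The direction of PLEKHA7 in FW33K against FW00K depended on the scale. As deposited it was -0.54 (SE 0.24, 95% interval -1.05 to -0.03, adjusted p = 0.0542), less than the fall of the median gene, and after scaling it was 0.60 (SE 0.18, 95% interval 0.20 to 1.00, adjusted p = 0.0281). The groups did not overlap on either scale, with FW33K below FW00K as deposited and above it (7.73, 5.42 and 5.91 against 3.05, 4.19 and 4.32) after scaling. As deposited 83.5% of all tested genes did not overlap there, and the share after scaling was not computed. Neither change of PLEKHA7 passed the threshold.

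In SW33K, PLEKHA7 was 71.0% of its FW33K level. The difference was -0.39 (SE 0.24, adjusted p = 0.26) as deposited and -0.93 (SE 0.18, 95% interval -1.33 to -0.52, adjusted p = 0.00933) after scaling, where 3.34, 2.44 and 2.79 in SW33K stood against 7.73, 5.42 and 5.91 in FW33K. Under quantile normalization it was -0.82 and did not pass (adjusted p = 0.0309). Of all tested genes, 1.43% passed between SW33K and FW33K as deposited and 4.32% after scaling. Against FW00K the difference of PLEKHA7 was -0.93 (SE 0.24, adjusted p = 0.0083) as deposited and -0.33 (adjusted p = 0.189) after scaling, with overlap. There 21.8% of all tested genes passed as deposited and 19.7% after scaling. The deposited call was kept without replicate 1 of FW00K, FW11K or FW33K and lost without any other library (adjusted p 0.0111 to 0.037). With replicates 2 and 3 averaged, of the 9 deposited calls of JAG1, ZEB1 and PLEKHA7 only that of JAG1 in FW33K against FW00K was kept.

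**Figure D2:**
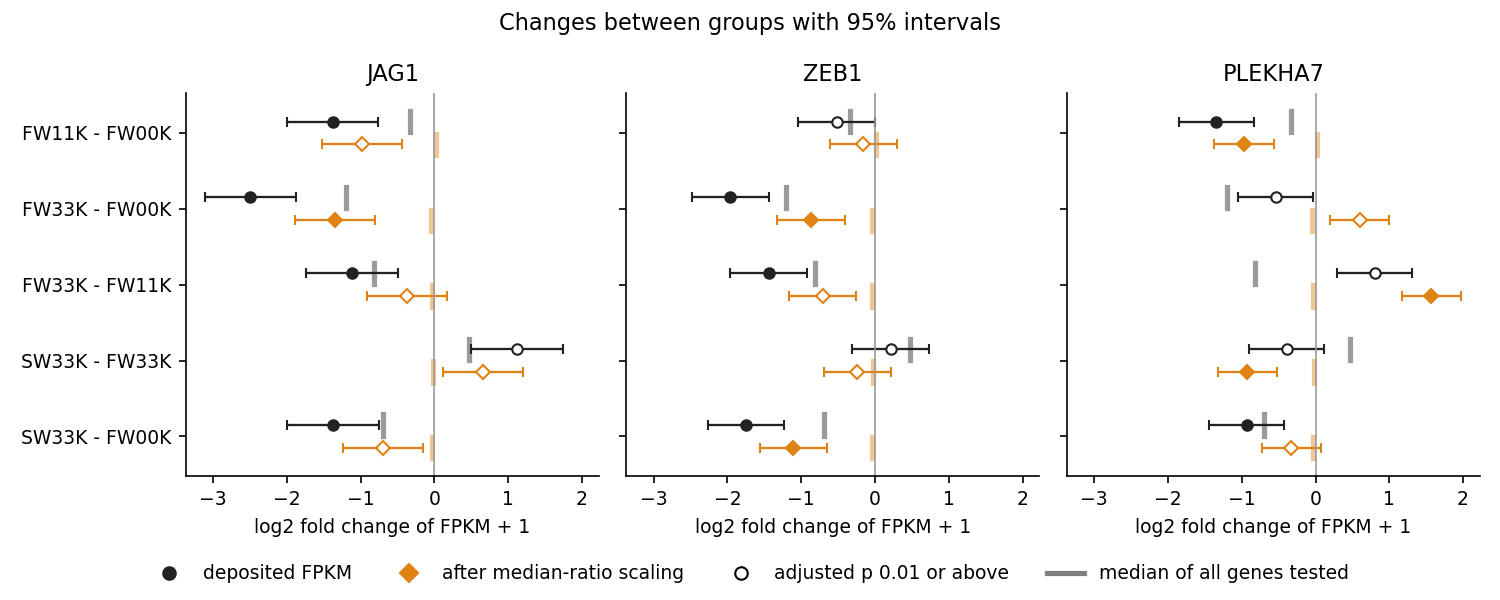
Log2 fold changes of FPKM + 1 with 95% intervals for JAG1, ZEB1 and PLEKHA7 in 5 comparisons, as deposited (circles) and after median-ratio scaling (diamonds); filled symbols have an adjusted p under 0.01 and vertical ticks mark the median of all tested genes. JAG1 and ZEB1 fell in FW33K against FW00K on both scales, whereas PLEKHA7 stood to the right of the median of all genes there and changed sign with the scaling.

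Ratios between the genes within a library do not depend on how that library is scaled. They do depend on the FPKM used. The mean FPKM printed by the study is lower for JAG1 and higher for PLEKHA7 than the deposited means in every group. PLEKHA7 over JAG1 would therefore be higher from the printed means, and the cause of the difference was not tested. PLEKHA7 over ZEB1 was 1.17 ± 0.0416 in SW33K, 0.614 ± 0.178 in FW00K, 0.266 ± 0.0757 in FW11K and 2.09 ± 0.345 in FW33K (SD, n = 3 each). The 4 groups did not overlap one another in this ratio, and FW33K was highest in every library (1.70, 2.23 and 2.35). How often ratios of other gene pairs keep groups apart was not computed, for this ratio or those below. Among single genes it was common, at 83.5% of those tested between FW33K and FW00K as deposited. PLEKHA7 was therefore above ZEB1 in every SW33K and FW33K library and below it in every FW00K and FW11K library. Saltwater fish were present only at 33 g/L, so this is not a contrast of salinity alone.

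PLEKHA7 over JAG1 set FW33K apart from the other groups. It was 1.59, 1.73 and 1.82 in FW33K, whereas every other library lay between 0.145 and 0.499. JAG1 over ZEB1 was highest in SW33K, at 2.41, 2.90 and 2.60, against 1.07, 1.29 and 1.29 in FW33K. In the other FW groups it was 1.42, 1.89 and 1.86 in FW00K, and 1.24, 0.724 and 0.769 in FW11K. These ratios reuse the levels above, and with 3 libraries against 3 an exact permutation test cannot go below p = 0.10, so no p is given.

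**Figure D3:**
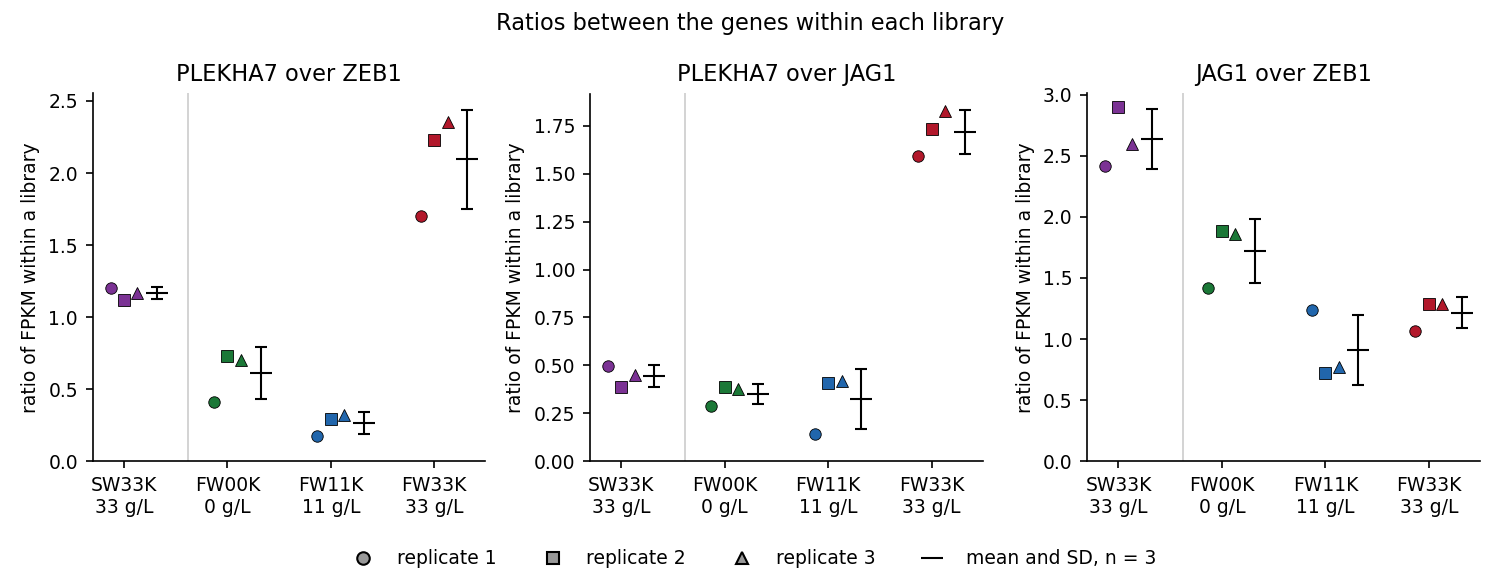
Ratios of FPKM between JAG1, ZEB1 and PLEKHA7 within each library, by group and salinity, with the mean and SD (n = 3). PLEKHA7 over JAG1 was 1.59 to 1.82 in FW33K and at most 0.499 elsewhere, and JAG1 over ZEB1 was highest in SW33K (2.41 to 2.90).

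Against all tested genes, the 3 genes were of middle to low abundance. JAG1 was at the 38.7 to 40.6 percentile of the tested genes in SW33K, 52.1 to 55.5 in FW00K, 24.1 to 46.3 in FW11K and 22.8 to 31.6 in FW33K. ZEB1 was at the 16.6 to 21.8 percentile in SW33K, 32.5 to 38.3 in FW00K, 31.2 to 39.5 in FW11K and 18.5 to 30.1 in FW33K. PLEKHA7 was at the 18.5 to 25.2 percentile in SW33K, 14.7 to 25.3 in FW00K, 8.15 to 11.1 in FW11K and 34.3 to 44.2 in FW33K. By this rank PLEKHA7 stood highest in FW33K, where its FPKM was below that in FW00K.

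Across the 12 libraries, log2(FPKM + 1) of JAG1 and ZEB1 had a Pearson's r of 0.84, which was 0.47 once the median of each library was taken off. PLEKHA7 had an r of 0.42 with JAG1 and 0.24 with ZEB1 before, and -0.09 and -0.29 after. The 12 points share their groups and library composition, so these values are descriptions only.

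The genes with the most similar pattern over the 12 libraries were taken from the 1326 tested genes with a symbol, by Pearson's r after the library median was taken off. All but ZEB1 have a symbol because the study listed them as salt-responsive in these libraries. For JAG1 they were NSUN7, a putative RNA methyltransferase (r = 0.98), CXXC5, a zinc-finger protein (0.97), MYO10 (1 of 2), a motor of filopodia (0.97), PCDH1 (1 of 2), a protocadherin (0.96), and VSIG8 (0.96). MYO10, as an example, averaged 12.6 ± 5.87 FPKM in SW33K, 33.5 ± 2.48 in FW00K, 9.70 ± 5.37 in FW11K and 3.42 ± 0.238 in FW33K (SD, n = 3 each).

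For ZEB1 the likeness was lower among genes with a symbol. The closest were LPAR2 (2 of 2), a lysophosphatidic acid receptor (r = 0.91), and SOCS2, a suppressor of cytokine signals (0.90). Next came CYP2J2 (3 of 6), a cytochrome P450 (0.89), BLNK, an adaptor of B cells (0.88), and PRODH2, a hydroxyproline dehydrogenase (0.88). Above LPAR2 stood 30 tested genes without a symbol, beside 1 above the closest named gene of JAG1 and 8 above that of PLEKHA7. The lower r may thus be one of the genes that could be named. PRODH2 averaged 7.99 ± 0.622 FPKM in SW33K, 52.6 ± 3.38 in FW00K, 29.3 ± 7.10 in FW11K and 5.92 ± 1.73 in FW33K (SD, n = 3 each), the same order as the FPKM of ZEB1.

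For PLEKHA7 they were a gene spelled DDK3 (1 of 2) in the study's table (r = 0.95), DDR2 (2 of 2), a collagen receptor (0.93), NUCB2 (2 of 2), a calcium-binding nucleobindin (0.93), UNC13A (0.92), and DUOX1, an oxidase that makes hydrogen peroxide (0.91). NUCB2 averaged 40.5 ± 2.48 FPKM in SW33K, 59.8 ± 0.724 in FW00K, 26.8 ± 2.49 in FW11K and 107 ± 10.2 in FW33K (SD, n = 3 each). Like the scaled level of PLEKHA7, it was lowest in FW11K and highest in FW33K.

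Genes of the same pathways were examined through lists fixed with earlier results of these data known. Of lists of Notch, EMT, adherens junction, tight junction and desmosome genes, 18 genes besides JAG1, ZEB1 and PLEKHA7 could be matched to an identifier, all through the study's own list of salt-responsive genes, so they too were picked on these libraries. In FW33K against FW00K, 7 of the 18 passed as lower and 1 as higher, where 51.3% of all tested genes passed, with a median change of -0.75 beside -1.20 over all tested genes. After scaling 6 passed as lower and 7 as higher, where 18.8% of all passed, with a median of 0.57 beside -0.05. In FW11K against FW00K, 7 passed as lower and 0 as higher on both scales, where 4.46% of all passed as deposited and 8.04% after scaling, with a median of -1.12 beside -0.34 as deposited and -0.76 beside 0.02 after scaling. At an unadjusted limma p under 0.05 none was higher there either, and 14 were lower as deposited and 10 after scaling. In FW33K against FW11K, where PLEKHA7 had its high scaled change, RAB25 (2 of 2), JAM3 (1 of 2) and PKP1 (1 of 2) passed as higher (1.16, 1.49 and 2.66) and PVRL2 as lower (-1.23) as deposited, where 25.1% of all passed. After scaling, where 14.5% of all passed, 9 of the 18 passed as higher and none as lower, 1 having been lower at an unadjusted limma p under 0.05, with a median of 1.31 beside -0.04 over all tested genes.

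Among the Notch genes, EOGT, a glycosyltransferase that modifies Notch, was the only one of 4 to pass in FW33K against FW00K as deposited (-1.46, SE 0.23, adjusted p = 0.000296), and it did not pass after scaling (-0.66, adjusted p = 0.0355). It stood at 3.86, 4.29 and 5.15 FPKM in SW33K, 3.07, 4.06 and 3.44 in FW00K, 2.12, 1.54 and 1.68 in FW11K, and 0.52, 0.637 and 0.76 in FW33K. EOGT was higher in SW33K than in FW33K by 1.73 (adjusted p = 0.00211), as was FBXW7, a ubiquitin ligase subunit that acts on cleaved Notch (1.79, adjusted p = 0.00556). Both differences passed after scaling as well (EOGT 1.50, FBXW7 1.38), where TLE3 (2 of 2) passed as lower (-1.36, adjusted p = 0.00106). Of all tested genes, 1.43% passed in SW33K against FW33K as deposited and 4.32% after scaling. The study's list, through which these genes were matched, was drawn partly from that same comparison, so these calls are not independent evidence. PSEN2, a subunit of the protease that cleaves Notch, and TLE3 (2 of 2), a co-repressor, had changes of -0.01 and -0.23 in FW33K against FW00K, and passed as higher after scaling (1.34 and 0.88).

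Among the EMT genes, CRB2 (2 of 2), a protein of apical polarity, fell by 1.60 in FW33K against FW00K (SE 0.27, adjusted p = 0.000389), and by 1.03 after scaling (adjusted p = 0.00204). CRB2 was a low gene, at 0.0982, 0.32 and 0.198 FPKM in FW33K against 2.60, 2.52 and 2.78 in FW00K. ESRP1 and ESRP2, splicing regulators of epithelial cells, had changes of -0.16 and 0.98, neither past the threshold, and after scaling ESRP1 turned to 1.15 (adjusted p = 0.0213) and ESRP2 passed as higher (2.09, adjusted p = 0.0065). RAB25 (2 of 2), a GTPase of epithelial recycling endosomes, had a change of -0.94 (adjusted p = 0.0162), which turned to 0.39 after scaling (adjusted p = 0.163). E-cadherin itself was not analysed here.

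Of the adherens junction genes other than PLEKHA7, PVRL2, a nectin, fell in FW33K against FW00K by 2.44 (SE 0.24, adjusted p = 3.63e-05) and by 1.33 after scaling. It stood at 2.07, 3.27 and 3.59 FPKM in SW33K, 18.4, 13.3 and 12.9 in FW00K, 5.25, 5.93 and 6.23 in FW11K, and 1.72, 2.10 and 1.86 in FW33K. CTNNAL1, an alpha-catenin-like protein, and ACTN1, an actin cross-linker, had changes of 0.40 and -0.05, and passed as higher after scaling (1.72 and 1.29). In SW33K against FW33K, ACTN1 had a scaled change of -1.31 (adjusted p = 0.00263), beside -0.93 for PLEKHA7, where 4.32% of all tested genes passed.

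The tight junction genes PRKCZ, an atypical kinase of cell polarity, and AMOTL2 (1 of 2), an angiomotin-like protein, fell in FW33K against FW00K, with changes of -2.40 and -2.62 (adjusted p = 5.13e-05 and 7.24e-05), and passed after scaling (-1.69 and -1.37). PRKCZ was near the floor in FW33K, at 0.298, 0.218 and 0.266 FPKM against 4.25, 6.20 and 6.85 in FW00K. F11R and JAM3 (1 of 2), junctional adhesion molecules, had changes of -0.58 and 0.64. After scaling F11R turned to 0.76 (adjusted p = 0.0225), and JAM3 passed as higher (1.87, adjusted p = 0.00104). Of the desmosome genes, DSP (2 of 2), which links desmosomes to keratin, and PKP3 (1 of 2), a plakophilin, fell, with changes of -2.24 and -2.88 (adjusted p = 0.000706 and 4.81e-05), and passed after scaling (-1.25 and -1.61). PKP1 (1 of 2), another plakophilin, rose by 1.40 (SE 0.41, adjusted p = 0.00971), and by 2.59 after scaling. PKP1 stood at 15.6, 11.6 and 10.3 FPKM in FW33K against 7.62, 2.74 and 2.98 in FW00K, and was lowest in FW11K (1.24, 1.05 and 1.05), as was PLEKHA7. Other list genes shared this low point: the deposited means of PSEN2, TLE3, ESRP1, RAB25, CTNNAL1, F11R and JAM3 were also lowest in FW11K. The share of all tested genes with their lowest mean in FW11K was not computed. The remaining list genes had their lowest deposited mean in another group. After scaling, DSP and PKP3 were no longer lower in FW33K than in FW11K (0.32 and 0.18, adjusted p = 0.45 and 0.706).

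**Figure D4:**
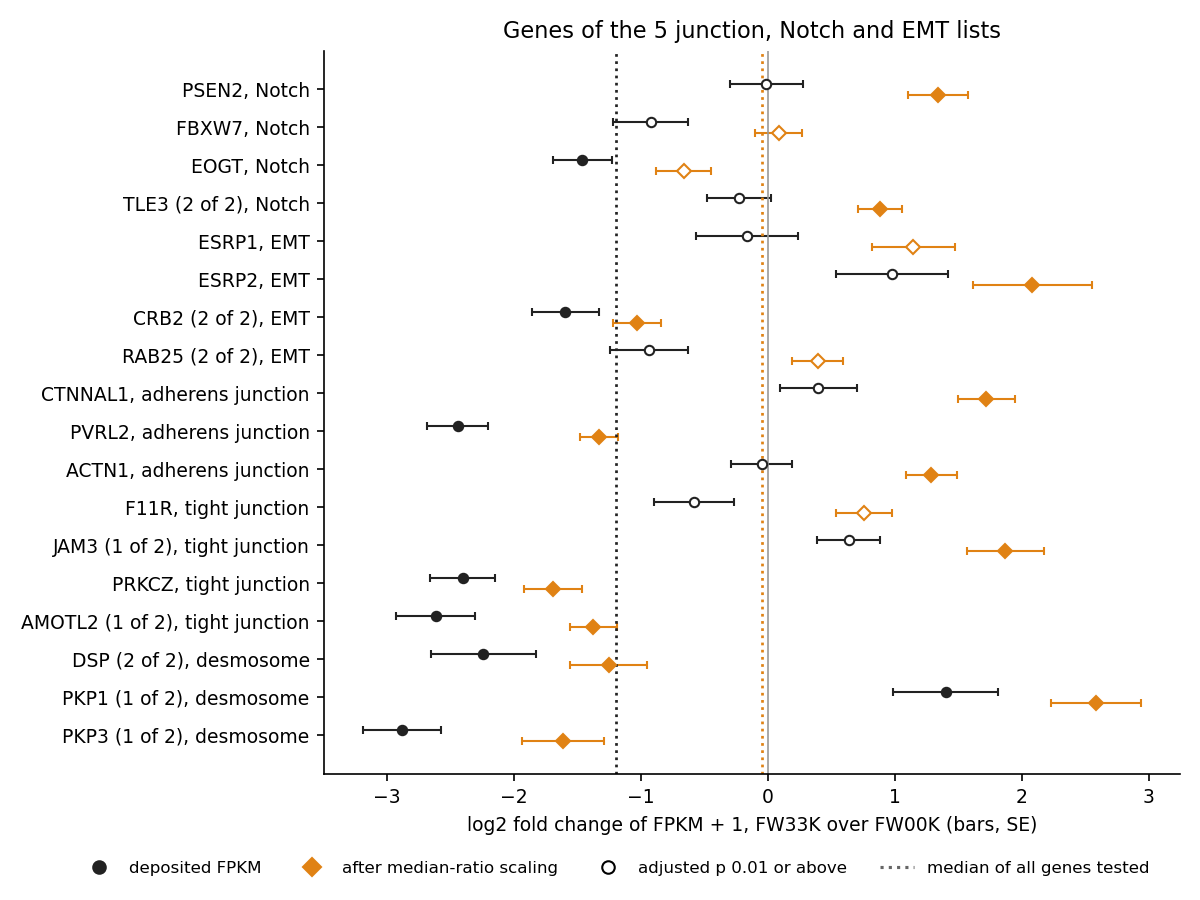
Log2 fold change of FPKM + 1 in FW33K over FW00K (bars, SE) for 18 genes of the Notch, EMT, adherens junction, tight junction and desmosome lists, as deposited (circles) and after median-ratio scaling (diamonds); filled symbols have an adjusted p under 0.01 and dotted lines mark the median of all tested genes. Deposited changes lay between -2.88 (PKP3) and 1.40 (PKP1). All 18 lay further to the right after scaling, which moved the median of all tested genes from -1.20 to -0.05.

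Markers of kidney cell types and of skeletal muscle differed between the same groups. In whole kidney, fewer cells of a type and less RNA per cell cannot be told apart. The markers were matched only through the study's list of salt-responsive genes, so they too were picked on these libraries. Their calls are therefore not independent evidence. Of the symbols listed, 8 of 24 for tubule and 4 of 5 for podocyte were matched. Of the kidney markers matched, none was at 0 in every library, which their place in the study's list all but fixed. The presence of each gene in each library was not examined. The summed FPKM of 8 tubule genes was 414 to 1020 in SW33K, 1720 to 1820 in FW00K, 899 to 1140 in FW11K and 512 to 579 in FW33K. That of 5 podocyte genes was 31.6 to 127 in SW33K, 265 to 362 in FW00K, 102 to 106 in FW11K and 30.8 to 34.1 in FW33K. All marker sums, here and for the other cell types, are of deposited FPKM and were not scaled. The median-ratio factors, by which scaling divides a library, were 1.48 to 1.67 in FW00K and 0.465 to 0.702 in FW33K. In FW33K against FW00K, 7 tubule genes passed as lower and 1 as higher, and 5 of 5 podocyte genes passed as lower. After scaling, 6 tubule genes passed as lower and 1 as higher, and again 5 podocyte genes as lower. The median log2 change of the tubule genes was -3.12 as deposited and -1.79 after scaling, and that of the podocyte genes -3.28 and -2.17. Beside these, the median over all tested genes was -1.20 and -0.05. Over all tested genes 51.3% passed as deposited, 7691 of them lower, and 18.8% after scaling.

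The 12 blood and immune cell genes, which the blood-forming kidney of fish expresses, summed to 121 to 212 FPKM in SW33K, 1280 to 1380 in FW00K, 1400 to 2800 in FW11K and 208 to 403 in FW33K. The 5 stroma genes summed to 18.4 to 77.7 FPKM in SW33K, 42.9 to 52.5 in FW00K, 93.3 to 159 in FW11K and 61.7 to 111 in FW33K. The 19 endoplasmic reticulum genes of secretory cells summed to 5210 to 6590 FPKM in SW33K, 1260 to 1460 in FW00K, 1430 to 3110 in FW11K and 4450 to 5680 in FW33K. These 19 genes stand for only 8 symbols, as many of them are annotated copies of SSR1. VWF, the single endothelial marker matched, was at 1.84 to 2.57 FPKM in SW33K, 17.7 to 19.9 in FW00K, 4.03 to 7.26 in FW11K and 1.53 to 2.09 in FW33K. Skeletal muscle is not a cell type of the kidney. Its 6 genes summed to 2.16 to 6.54 FPKM in SW33K, 41.8 to 399 in FW00K, 6.66 to 27.6 in FW11K and 0.667 to 1.23 in FW33K. Where this muscle RNA came from was not tested. In FW33K against FW00K, 8 blood and immune genes passed as lower as deposited and 3 after scaling. Of the stroma genes 1 passed as higher as deposited and 5 after scaling, and of the secretory genes 7 and 19. VWF and the 6 muscle genes passed as lower on both scales. Over all tested genes 51.3% passed as deposited and 18.8% after scaling. The part of these cell types in the changes of JAG1, ZEB1 and PLEKHA7 was not tested.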

How the data were processed

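Kidney RNA-seq of 12 libraries was used, 3 each of SW33K, FW00K, FW11K and FW33K, grouped by their titles. The authors trimmed reads to 75 bases, aligned them with TopHat2 2.0.3 to a BROADS1 reference whose polymorphic positions had been masked, with up to 2 mismatches in FW and 3 in SW fish, and deposited the FPKM that Cufflinks 2.0.2 estimated. These values are scaled within each library and hold no counts, so no depth or counting error could be had from them and the study's count tests were not repeated. The supplement lists reads used in mapping for each library, which entered no fit here.

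Genes averaging 1 FPKM or more entered limma 3.58.1 (R 4.3.3) as log2(FPKM + 1), a scale that understates changes of low genes. All libraries entered one fit, with Benjamini-Hochberg adjustment over 15503 genes and a threshold of 0.01. The comparisons share libraries. Fits were checked on simulated data, in which 200 genes were given a log2 change of 2 in FW33K. Of these, 116 were called in FW33K against FW00K, with 0 other genes called, so changes of that size could miss the threshold in the simulation. In the deposited data 7956 genes passed in that comparison. The adjustment is less strict on a gene where more genes pass. Neither the share missed nor the absence of other calls can therefore be carried over to the deposited data. Levels, ratios and figures were made in Python with pandas and matplotlib.

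The genes and lists were chosen with earlier results of these data known. Named besides the 3 genes were list genes past the threshold in FW33K against FW00K (up to 4 a list), those behind small counts, and the 5 genes with a symbol most like each of the 3. RAB25, F11R, JAM3, ESRP1, ESRP2, CTNNAL1 and ACTN1 were added after their values were seen. Symbols of 1379 identifiers came from the study's list of salt-responsive genes. Of the symbols listed, 5 of 59 Notch, 5 of 47 EMT, 4 of 43 adherens junction, 4 of 39 tight junction and 3 of 15 desmosome and keratin genes were matched.

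Replicate numbers are not said to pair fish. Deviations from the group means correlated between same-numbered libraries, with every r above 0.1, in FW33K and FW11K (0.25, 0.38 and 0.26), SW33K and FW33K (0.14, 0.35 and 0.18), and SW33K and FW00K (0.28, 0.42 and 0.29). A replicate block was fitted over all libraries, and so in every comparison. In those named here it is a paired reading taken from the data. Alternatives were median-ratio scaling, quantile normalization, a pseudocount of 0.1, no filter, fitting the compared groups alone, the replicate block, averaging replicates 2 and 3, and leaving out each library.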

Additional observations from a re-analysis of the deposited data

How the results depend on the processing

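JAG1 in FW33K against FW00K kept its call under all 19 alternatives (adjusted p at most 0.00589). Median-ratio scaling took the call from JAG1 in FW11K against FW00K (-0.99), FW33K against FW11K (-0.37) and SW33K against FW00K (-0.69), from ZEB1 in FW33K against FW11K (-0.71) and from PLEKHA7 in SW33K against FW00K (-0.33), gave one to PLEKHA7 in FW33K against FW11K (1.57) and SW33K against FW33K (-0.93), and turned the sign of ZEB1 in SW33K against FW33K (-0.24) and PLEKHA7 in FW33K against FW00K (0.60). Quantile normalization left these values at -0.94, -0.27, -0.58, -0.60 and 0.028 (a turned sign), then 1.61 and, with no call, -0.82, and -0.19 and 0.85 (turned signs), and it also took the call from ZEB1 in FW33K against FW00K (-0.65) and PLEKHA7 in FW11K against FW00K (-0.76). A pseudocount of 0.1 took it from JAG1 in FW11K against FW00K (-1.52) and PLEKHA7 in SW33K against FW00K (-1.15). Without the filter, JAG1 lost it in FW11K against FW00K (-1.38) and FW33K against FW11K (-1.12), and with only the libraries of the comparison in these (-1.38 and -1.12) and in SW33K against FW00K (-1.38), as did PLEKHA7 in FW11K (-1.35) and SW33K (-0.93) against FW00K.

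The paired fit with a replicate block took the call from JAG1 in FW11K against FW00K (-1.38, adjusted p = 0.0131) and FW33K against FW11K (-1.12), gave one to PLEKHA7 in FW33K against FW11K (0.80), and changed no other call. Same-numbered libraries did not all correlate above 0.1 in FW11K and FW00K (-0.03, 0.15 and -0.004) or FW33K and FW00K (0.10, 0.30 and 0.10). With replicates 2 and 3 averaged, which leaves 2 values a group, the call was lost for JAG1 in FW11K against FW00K (-1.26), FW33K against FW11K (-1.25) and SW33K against FW00K (-1.52), for ZEB1 in FW33K against FW00K (-2.00), FW33K against FW11K (-1.44) and SW33K against FW00K (-1.90), and for PLEKHA7 in FW11K (-1.36) and SW33K (-0.96) against FW00K.

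Leaving out 1 library at a time gave JAG1 -1.66 to -1.23 in FW11K against FW00K, -1.27 to -0.84 in FW33K against FW11K, 0.98 to 1.37 in SW33K against FW33K and -1.52 to -1.12 in SW33K against FW00K, and PLEKHA7 -1.44 to -1.23 in FW11K against FW00K, 0.69 to 0.88 in FW33K against FW11K and -1.04 to -0.78 in SW33K against FW00K. No ZEB1 call changed.

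Over all genes, averaging replicates 2 and 3 left 0, 1023, 49, 2 and 353 calls in FW11K against FW00K, FW33K against FW00K, FW33K against FW11K, SW33K against FW33K and SW33K against FW00K by limma. In the first, where none was left, 1918 genes had an unadjusted p under 0.05. Leaving out 1 library gave 29 to 2167, 5242 to 9605, 1059 to 6502, 6 to 3584 and 1749 to 4357. Quantile normalization gave 1109, 2680, 1935 and 507 calls in 4 of these, in the same order without the last, a pseudocount of 0.1 gave 279 in FW11K against FW00K, and using only the libraries of the comparison gave 2542, 7 and 2231 in the last 3. Where a call was lost or gained the cause was not tested, beyond fewer libraries or other genes entering the fit.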
